A study of Rattus norvegicus with 9 samples.

Results

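The transcripts of 5 genes of the NF-kB pathway were followed in the rat cell line HBZY-1, an established line labelled as glomerular mesangial cells. Mesangial cells lie between the capillaries of the kidney's filter, where they contract, make matrix and respond to inflammatory stimuli. The genes were 3 that encode NF-kB subunits (Nfkb1, Nfkb2 and Rela) and 2 that encode feedback inhibitors (Nfkbia and Tnfaip3). They were chosen by Ensembl identifier, ENSRNOG00000023258 for Nfkb1, ENSRNOG00000019311 for Nfkb2, ENSRNOG00000030888 for Rela, ENSRNOG00000007390 for Nfkbia and ENSRNOG00000049517 for Tnfaip3. The pairing of these identifiers with gene names came with the definition of the set, since the deposited tables hold no names. All 5 of 5 were among the 30560 genes listed, and all 5 were among the 12192 genes tested. The 9 libraries formed 3 groups of 3: cells given the freeze-dried leech (Poecilobdella manillensis) powder as a high-dose extract in water, an LPS-induced model, and control cells. LPS, lipopolysaccharide, is an outer-membrane component of bacteria that provokes inflammatory responses in culture. The labels give no dose or exposure time, and they do not state whether the extract cells also received LPS or what the control cells were given, so the groups are called extract, LPS and control. All groups share the same cell line, and no genetic change is stated for any of them. The series calls the replicates biological without saying whether they came from separate cultures. The p-values therefore set differences of group means only against the spread of these libraries within their groups.

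NF-kB proteins are transcription factors that act as dimers. The Rela product carries a transactivation domain, while the Nfkb1 and Nfkb2 products are long precursors whose shorter forms bind DNA and whose C-terminal part is itself inhibitory. In resting cells the dimers are held in the cytoplasm by IkB proteins such as the product of Nfkbia, which is degraded after stimuli such as LPS or cytokines and is made again as an NF-kB target. Tnfaip3 encodes A20, a ubiquitin-editing enzyme that dampens signalling upstream of the IkB kinases and is also induced by NF-kB. Nfkb1 and Nfkb2 are themselves known NF-kB targets, so the pathway feeds back on its own subunits as well as on its inhibitors.

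Feedback of this kind can act through kappa-B motifs near gene starts, so the promoter windows of the 5 genes are shown. Each runs from 250 bases before to 50 bases after an annotated start (RefSeq, assembly GRCr8, matched by symbol for 5 of 5 genes). The windows were chr2:226805413-226805712 on the minus strand for Nfkb1, chr1:255108124-255108423 on the plus strand for Nfkb2, chr6:78597023-78597322 on the minus strand for Nfkbia, chr1:15543930-15544229 on the minus strand for Tnfaip3 and chr1:212354086-212354385 on the plus strand for Rela. They are written 5′ to 3′ along the gene, and capitals mark matches on either strand to the kappa-B consensus GGGRNWYYCC. In it R is A or G, N is any base, W is A or T and Y is C or T.
Nfkb1: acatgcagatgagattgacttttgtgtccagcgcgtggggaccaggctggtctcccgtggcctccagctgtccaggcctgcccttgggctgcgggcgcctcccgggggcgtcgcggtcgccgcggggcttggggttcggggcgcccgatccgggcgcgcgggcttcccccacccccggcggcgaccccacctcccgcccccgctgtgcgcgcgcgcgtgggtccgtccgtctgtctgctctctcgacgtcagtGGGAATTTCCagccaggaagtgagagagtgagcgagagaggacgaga
Nfkb2: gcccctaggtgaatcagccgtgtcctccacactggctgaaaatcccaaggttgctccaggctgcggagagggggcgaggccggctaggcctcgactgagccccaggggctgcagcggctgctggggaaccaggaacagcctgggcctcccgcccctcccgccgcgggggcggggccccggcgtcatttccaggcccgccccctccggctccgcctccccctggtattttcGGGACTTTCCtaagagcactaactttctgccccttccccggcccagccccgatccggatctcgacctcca
Nfkbia: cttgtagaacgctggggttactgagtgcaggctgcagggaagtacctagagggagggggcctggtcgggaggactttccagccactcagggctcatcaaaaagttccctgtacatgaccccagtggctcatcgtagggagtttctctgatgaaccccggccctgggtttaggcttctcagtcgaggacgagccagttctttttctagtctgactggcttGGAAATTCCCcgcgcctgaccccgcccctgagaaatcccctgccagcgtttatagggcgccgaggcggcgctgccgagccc
Tnfaip3: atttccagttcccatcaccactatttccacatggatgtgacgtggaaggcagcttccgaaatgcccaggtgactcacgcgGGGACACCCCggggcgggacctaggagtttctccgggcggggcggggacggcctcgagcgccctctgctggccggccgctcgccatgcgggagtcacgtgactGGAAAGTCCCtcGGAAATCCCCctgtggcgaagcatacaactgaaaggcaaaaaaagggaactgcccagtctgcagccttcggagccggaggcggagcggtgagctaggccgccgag
Rela: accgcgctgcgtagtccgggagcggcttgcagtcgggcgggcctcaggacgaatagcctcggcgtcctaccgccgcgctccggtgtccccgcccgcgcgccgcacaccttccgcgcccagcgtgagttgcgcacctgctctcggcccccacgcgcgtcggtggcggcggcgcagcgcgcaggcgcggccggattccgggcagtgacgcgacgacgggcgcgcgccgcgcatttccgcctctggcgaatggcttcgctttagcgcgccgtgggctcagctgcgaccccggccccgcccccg
The consensus was found in 4 of the 5 windows, against 1400 of all 33469 windows of the same length (4.18%). These windows were fewer than the 47357 annotated genes. Single sequences matching the consensus were then counted in all 33469 windows on both strands, a choice made with the 5 member windows in view. GGGACTTTCC was found in Nfkb2 and Tnfaip3 and in 0.111% of all windows, and GGGAATTTCC in Nfkb1 and Nfkbia and in 0.0747%. The Nfkb1 match, GGGAATTTCC, began 3 bases after the annotated start. The Nfkb2 match, GGGACTTTCC, began 20 bases before it. Nfkbia carried GGGAATTTCC on the opposite strand, 31 bases before the start. Tnfaip3 carried GGGACTTTCC and GGGGATTTCC on the opposite strand, 67 and 55 bases before the start, and GGGACACCCC on its own strand, 170 bases before it. No match was found in the Rela window. A match describes the letters of these windows and not binding in these cells, and other starts of the same genes were not searched.

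Levels are given as TPM, transcripts per 1000000 transcripts of the library, which corrects for transcript length and can be compared between genes. Over the 9 libraries 4 of the 5 genes were well expressed, with means of 70.9 TPM for Nfkbia, 66.9 TPM for Nfkb1, 56.3 TPM for Nfkb2 and 52.8 TPM for Rela. Between 77.1% (Rela) and 82.8% (Nfkbia) of the tested genes had a lower mean. Tnfaip3 was low, with a mean of 4.44 TPM and only 16.6% of tested genes below it. Whether a difference arose in all cells of a culture or in some of them cannot be told from bulk RNA.

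LPS versus control asks how the inflammatory model differed from control cells. In LPS cells Nfkb1, which encodes the precursor subunit of the canonical pathway, and Nfkbia, the gene of the inhibitor IkB alpha, were raised most, with 2.33 and 2.29 times the control level in TPM. The TPM of Nfkb1 averaged 98.5 ± 2.94 in LPS and 42.2 ± 0.777 in control cells, and that of Nfkbia 100.1 ± 5.22 in LPS and 43.6 ± 1.06 in control cells (SD, n = 3 each). Tnfaip3 rose to 1.66 times its control level. The genes of the other two subunits, Nfkb2 and Rela, did not pass the test. In this comparison 3 of 5 members were higher and 0 lower at a p below 0.05 from limma, adjusted by the Benjamini-Hochberg (BH) method over all tested genes, where 9.79% of all tested genes were higher and 30.9% lower. With the libraries rescaled by the median of ratios, 4 members, now with Nfkb2, were higher and 0 lower. After that rescaling 17.4% of tested genes were higher and 18.6% lower. In TPM as deposited the groups did not overlap for Nfkb1, Nfkbia and Tnfaip3, in the direction in which 12.5% of tested genes did not overlap.

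Extract versus LPS asks how cells given the extract differed from that model. All 5 members were lower in extract cells than in LPS cells, where 25.0% of tested genes were lower, and for all 5 the groups did not overlap, as for 27.8% of tested genes. The level in extract cells was 0.61 times that in LPS cells for Nfkb1, 0.65 times for Nfkb2, 0.69 times for Nfkbia, 0.77 times for Tnfaip3 and 0.84 times for Rela. Extract versus control asks how far the extract cells stood from control cells. Here 3 members were higher (Nfkb1, Nfkbia and Tnfaip3), where 22.3% of tested genes were higher, and 2 were lower (Nfkb2 and Rela), where 29.4% were lower. The groups were apart for each of the 5, with 26.2% of tested genes apart in the higher and 34.8% in the lower direction. These comparisons share libraries, so their values are given side by side and are not independent of each other.

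**Figure D1:**
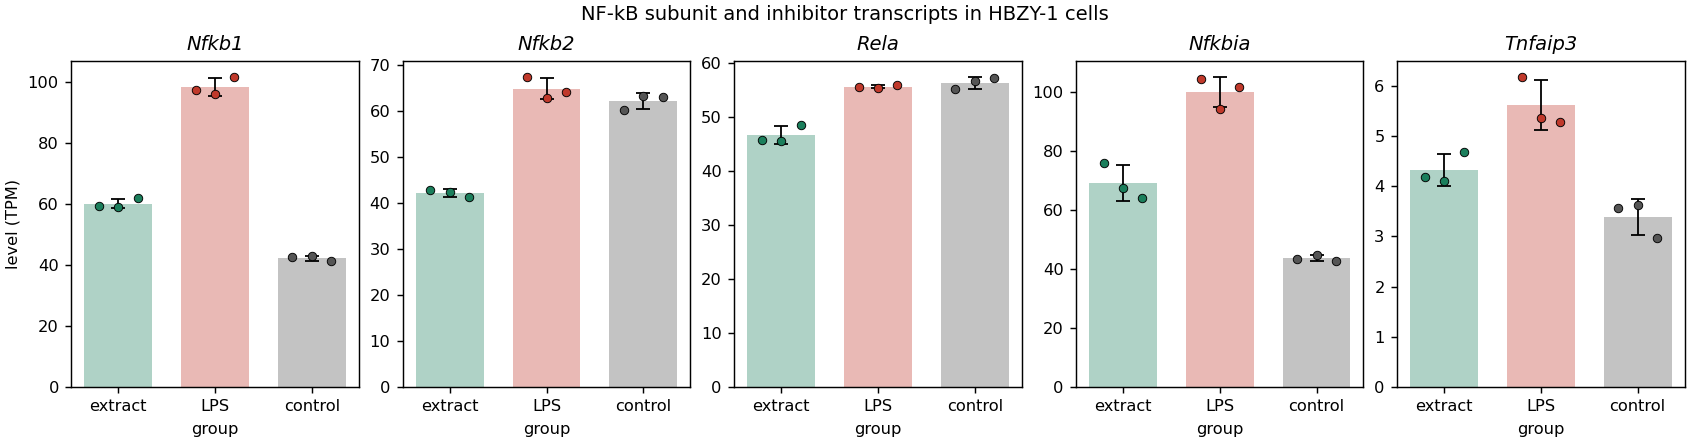
Level of each gene (TPM, vertical axes of different range) in the extract, LPS and control libraries. Points are single libraries, bars are means and error bars are the SD of 3 libraries. For Nfkb1, Nfkbia and Tnfaip3 the LPS libraries are highest and the extract libraries lie between LPS and control; for Nfkb2 and Rela the extract libraries are below both other groups, which overlap.

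Among the subunits, Nfkb1 had the largest change in LPS versus control. Its level was 59.45, 58.94 and 61.91 TPM in the extract libraries, 97.47, 96.14 and 101.77 TPM in the LPS libraries and 42.45, 42.78 and 41.3 TPM in the control libraries. The 3 groups were fully separated, with extract cells between LPS and control. For LPS against control cells this gave a log2 fold change of 1.20 ± 0.0357 (SE, 95% interval 1.12 to 1.28, limma BH-adjusted p = 2.54e-08), and 98.7% of tested genes had a lower value. In extract versus LPS it was -0.70 ± 0.0357 (limma BH-adjusted p = 3.21e-07). In extract versus control it was 0.50 ± 0.0357 (limma BH-adjusted p = 3.71e-06), and every extract library lay above the control libraries. On this log2(TPM + 1) scale a fold change slightly understates the ratio of TPM, which was 2.33 in LPS over control, 0.61 in extract over LPS and 1.43 in extract over control.

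Nfkb2 encodes the precursor subunit of the non-canonical pathway, which partners mainly with RelB. Its level was 42.8, 42.27 and 41.25 TPM in the extract libraries, 67.41, 62.86 and 64.09 TPM in the LPS libraries and 60.18, 63.22 and 62.96 TPM in the control libraries. LPS and control libraries overlapped, and all extract libraries lay below both. Between LPS and control cells its log2 fold change was 0.06 ± 0.0379 (95% interval -0.03 to 0.14, limma BH-adjusted p = 0.246). That comparison depended on the scaling of the libraries: when each library was rescaled by the median of its ratios to the average library, the log2 fold change was 0.15 (limma BH-adjusted p = 0.0106). On the log2 scale Nfkb2 fell by 0.61 ± 0.0379 in extract cells against LPS cells (limma BH-adjusted p = 1.01e-06) and fell by 0.55 ± 0.0379 against control cells (limma BH-adjusted p = 3.1e-06). Its level in extract cells was 0.65 times that in LPS cells and 0.68 times that in control cells.

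Rela encodes the transactivating subunit of the canonical dimer. It stood at 45.75, 45.56 and 48.46 TPM in the extract libraries, 55.46, 55.36 and 55.83 TPM in the LPS libraries and 55.07, 56.66 and 57.23 TPM in the control libraries. As for Nfkb2, LPS and control libraries overlapped and the extract libraries were lower than both. Between LPS and control cells its log2 fold change was -0.02 ± 0.0349 (95% interval -0.10 to 0.06, limma BH-adjusted p = 0.697). Rela fell by 0.25 ± 0.0349 on the log2 scale in extract versus LPS (limma BH-adjusted p = 0.000198), where 20.4% of tested genes had a lower value. It fell by 0.27 ± 0.0349 in extract versus control (limma BH-adjusted p = 0.000167).

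Of the inhibitors, Nfkbia followed the pattern of Nfkb1. Its level was 75.97, 67.45 and 63.91 TPM in the extract libraries, 104.35, 94.24 and 101.58 TPM in the LPS libraries and 43.32, 44.81 and 42.76 TPM in the control libraries. The groups did not overlap, and extract replicate 1 was the highest of its group. In LPS versus control the log2 fold change was 1.18 ± 0.0629 (95% interval 1.04 to 1.32, limma BH-adjusted p = 9.78e-07), above 98.6% of tested genes. It was -0.53 ± 0.0629 in extract versus LPS (limma BH-adjusted p = 6.7e-05) and 0.65 ± 0.0629 against control cells (limma BH-adjusted p = 2.59e-05). In extract cells Nfkbia was at 1.58 times its control level in TPM.

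Tnfaip3 showed the same order of groups at a much lower level. It stood at 4.18, 4.11 and 4.69 TPM in the extract libraries, 6.19, 5.37 and 5.29 TPM in the LPS libraries and 3.57, 3.63 and 2.97 TPM in the control libraries. The groups did not overlap, but the gaps between them were small. Between LPS and control cells its log2 fold change was 0.59 ± 0.092 (95% interval 0.39 to 0.80, limma BH-adjusted p = 0.000776), above 97.0% of tested genes. In extract versus LPS it was -0.31 ± 0.092 (95% interval -0.52 to -0.10, limma BH-adjusted p = 0.0153) and in extract versus control 0.28 ± 0.092 (95% interval 0.07 to 0.49, limma BH-adjusted p = 0.0286). Both extract calls lay near the threshold and were lost when some single libraries were left out. The extract-LPS call was lost without extract replicate 2 (limma BH-adjusted p = 0.0515) or LPS replicate 1 (limma BH-adjusted p = 0.0564), and the extract-control call without extract replicate 3 (limma BH-adjusted p = 0.0957) or control replicate 3 (limma BH-adjusted p = 0.0889). The extract-control comparison also lost its call when low genes were not filtered (limma BH-adjusted p = 0.0531). At this level the added 1 TPM shrinks the fold change. With 5 TPM added, LPS versus control gave a log2 fold change of 0.34, extract versus LPS gave -0.19 and extract versus control gave 0.15, all 3 still called. The TPM of LPS cells was 1.66 times that of control cells.

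**Figure D2:**
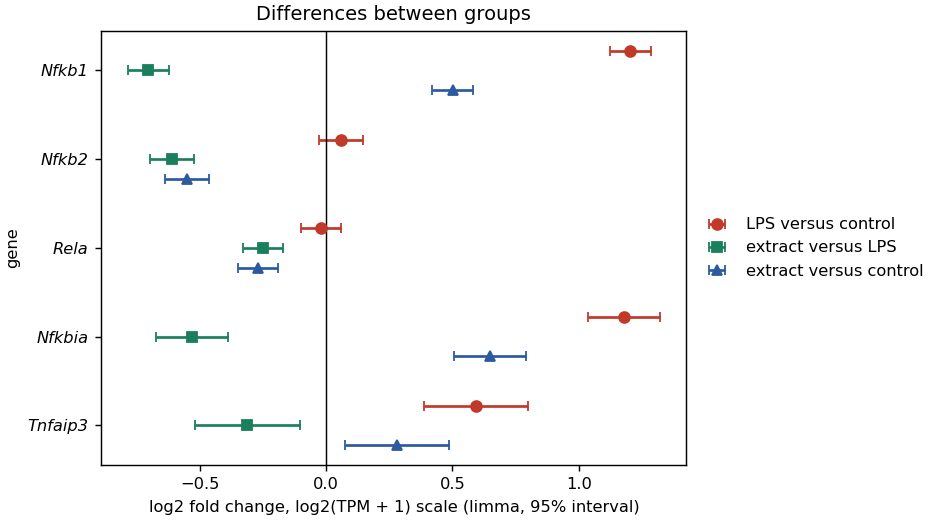
Log2 fold change of each gene in the 3 comparisons, on the log2(TPM + 1) scale, with 95% intervals from limma. The extract-LPS values of all 5 genes lie below 0, and the LPS-control intervals of Nfkb2 and Rela include 0.

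The median log2 fold change of the 5 members was 0.59 in LPS versus control, where it was -0.08 over all tested genes. It was -0.53 in extract versus LPS, against 0.04 over all tested genes, and 0.28 in extract versus control, against -0.04. In LPS versus control the members spread from the middle of the distribution (Rela, above 63.6% of tested genes) to its upper tail (Nfkb1). In extract versus LPS they all lay in its lower part, between 4.71% (Nfkb1) and 20.4% (Rela) of tested genes below. In extract versus control they lay on both sides, with 7.23% of tested genes below Nfkb2 and 95.8% below Nfkbia.

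**Figure D3:**
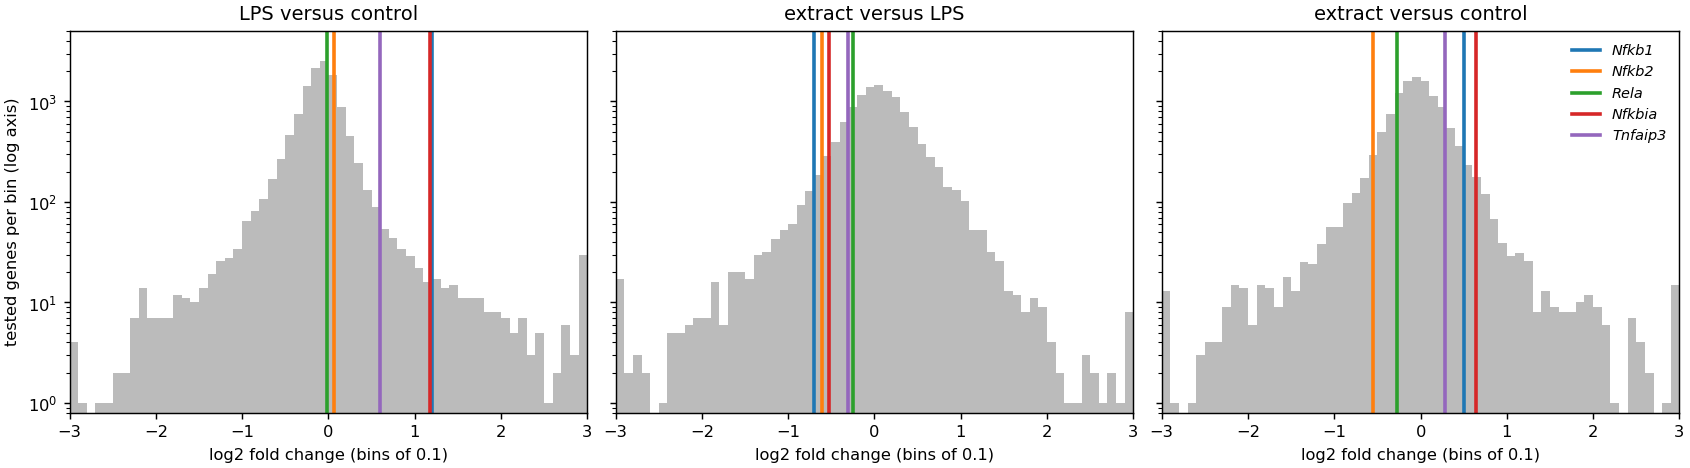
Number of tested genes per bin of log2 fold change (log axis) in each comparison, with the value of each member as a line. The first and last bins also hold the genes beyond the axis. Nfkb1 and Nfkbia lie in the upper tail in LPS versus control, and all 5 members lie left of the centre in extract versus LPS.

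The order of the genes by level changed between groups. In extract cells Nfkbia (69.1 ± 6.2 TPM, SD, n = 3) was followed by Nfkb1 (60.1 ± 1.59 TPM), Rela (46.6 ± 1.62 TPM) and Nfkb2 (42.1 ± 0.788 TPM), and no neighbours in this order overlapped. In LPS cells Nfkbia (100.1 ± 5.22 TPM) and Nfkb1 (98.5 ± 2.94 TPM) overlapped at the top, above Nfkb2 (64.8 ± 2.35 TPM) and Rela (55.55 ± 0.248 TPM). In control cells Nfkb2 (62.1 ± 1.69 TPM) was the most abundant, followed by Rela (56.3 ± 1.12 TPM), and Nfkbia (43.6 ± 1.06 TPM) and Nfkb1 (42.2 ± 0.777 TPM) overlapped below them. Tnfaip3 was last in each group, at 4.33 ± 0.317 TPM in extract, 5.62 ± 0.498 TPM in LPS and 3.39 ± 0.365 TPM in control cells.

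Ratios of TPM between members within a library do not depend on how the library was scaled, and they are given as a description with no test. How often ratios between other genes keep the groups apart was not counted. Nfkb1 over Rela was 1.29 ± 0.0114 in extract, 1.77 ± 0.045 in LPS and 0.749 ± 0.0251 in control libraries (SD, n = 3 each), so the gene of the precursor subunit was less abundant than Rela only in control cells. Nfkbia over Rela, the inhibitor transcript against that of a subunit it retains, was 1.49 ± 0.171 in extract, 1.80 ± 0.091 in LPS and 0.775 ± 0.0241 in control libraries. Neither ratio overlapped between any pair of groups. Nfkbia over Nfkb1, in contrast, was 1.15 ± 0.123 in extract, 1.02 ± 0.0478 in LPS and 1.03 ± 0.0135 in control libraries, and the ranges of all 3 groups overlapped.

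The balance between the precursor subunits differed between control cells and the other two groups. Nfkb2 over Nfkb1 was 0.701 ± 0.0302 in extract, 0.658 ± 0.0312 in LPS and 1.47 ± 0.0535 in control libraries (SD, n = 3 each). Extract and LPS libraries overlapped, and both lay below control. In LPS cells this ratio was low with Nfkb1 raised, whereas in extract cells Nfkb1 was above and Nfkb2 below control. Nfkb2 over Rela was 0.905 ± 0.0466 in extract, 1.17 ± 0.0431 in LPS and 1.10 ± 0.0118 in control libraries, and no groups overlapped. The gap between LPS (1.135 to 1.216) and control (1.093 to 1.116) was narrow, and neither gene was called there in TPM as deposited. Tnfaip3 over Rela was 0.0928 ± 0.00351 in extract, 0.101 ± 0.00915 in LPS and 0.0603 ± 0.00726 in control libraries. Extract and LPS libraries overlapped in that ratio, although Tnfaip3 itself was lower in extract cells.

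**Figure D4:**
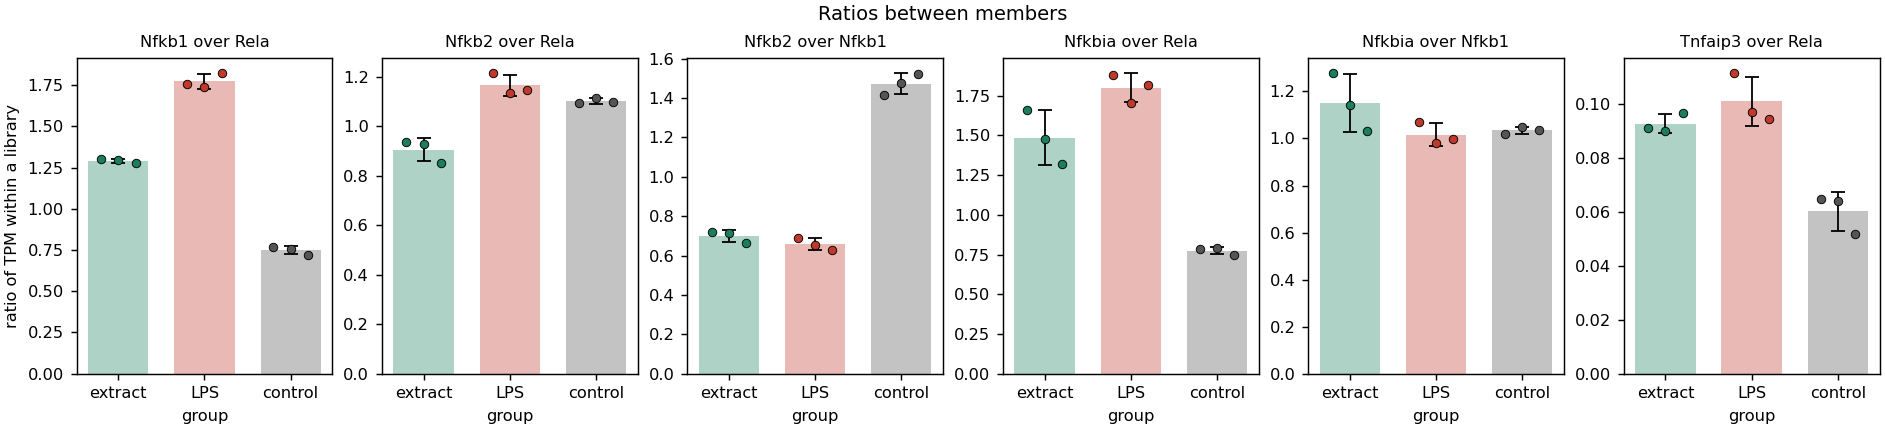
Ratios of TPM between members within each library in the extract, LPS and control groups. Points are libraries, bars are means and error bars are the SD of 3 libraries. Nfkbia over Nfkb1 lies near 1 in all groups, while Nfkb1 over Rela and Nfkbia over Rela separate all 3 groups.

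Within the table of transcripts, consecutive rows summed to the gene's level for each member, which gave 2 transcripts for Nfkb1, 2 for Nfkb2, 5 for Rela, 2 for Nfkbia and 2 for Tnfaip3. Of these, 8 reached a mean of 1 TPM and were tested. In LPS versus control 5 were higher (5.96% of 19383 tested transcripts were), in extract versus LPS 5 were lower (16.2%), and in extract versus control 3 were higher (14.0%) and 2 lower (18.0%). Nfkb2, Nfkbia and Tnfaip3 each came almost wholly from a single transcript, with shares of 99.8%, 96.5% and 98.5% in extract libraries, for example. The leading Nfkb1 transcript, ENSRNOT00000036838, held 86.3% ± 1.92 of the gene in extract, 87.6% ± 0.274 in LPS and 85.0% ± 1.6 in control libraries. Its companion ENSRNOT00000109057 stood at 8.23 ± 0.953 TPM in extract, 12.2 ± 0.382 TPM in LPS and 6.30 ± 0.549 TPM in control libraries, and both Nfkb1 transcripts were called in the direction of the gene in all 3 comparisons. The call of ENSRNOT00000109057 between extract and control (limma BH-adjusted p = 0.0246) was lost without extract replicate 1 or 2 (0.0835 and 0.084) or control replicate 1 or 2 (0.0781 and 0.0749). For the minor Nfkbia transcript, ENSRNOT00000114471, the call between LPS and control (limma BH-adjusted p = 0.0365) was lost without extract replicate 3 (0.0532), LPS replicate 1 or 3 (0.104 and 0.0961) or control replicate 2 or 3 (0.0561 and 0.0912). Leaving out the extract library did not change the fold change in that comparison, which uses extract libraries only for the spread estimated over all groups. The leading Tnfaip3 transcript, ENSRNOT00000074583, was called between extract and LPS (limma BH-adjusted p = 0.0353). That call was lost without extract replicate 1, 2 or 3 (0.0869, 0.1 and 0.0508) or LPS replicate 1 or 2 (0.112 and 0.0617). Between extract and control the same transcript was not called (log2 fold change 0.28, limma BH-adjusted p = 0.0722), although the gene was. It passed there with median-of-ratios scaling (limma BH-adjusted p = 0.0477) and quantile normalization (limma BH-adjusted p = 0.0326).

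Rela was spread over more transcripts, of which 2 were tested. Its leading transcript, ENSRNOT00000100435, was at 33.73, 36.03 and 40.26 TPM in the extract libraries, 39.45, 43.87 and 43.19 TPM in the LPS libraries and 46.91, 52.51 and 47.05 TPM in the control libraries. Extract and LPS libraries overlapped, and both lay below control. On the log2 scale it fell by 0.41 ± 0.0757 in extract cells against control cells (limma BH-adjusted p = 0.0038). Its log2 fold change was -0.21 ± 0.0757 between LPS and control cells (limma BH-adjusted p = 0.0867) and, between extract and LPS cells, -0.20 ± 0.0757 (limma BH-adjusted p = 0.0686). The last value passed the threshold after rescaling, at -0.25 (limma BH-adjusted p = 0.033), without extract replicate 3, at -0.27 (limma BH-adjusted p = 0.0247), and with the replicate number as a block, at -0.20 (limma BH-adjusted p = 0.0496). A further transcript, ENSRNOT00000045233, was at 9.29, 9.13 and 7.81 TPM in the extract libraries, 15.29, 11.15 and 12.08 TPM in the LPS libraries and 6.9, 1.95 and 9.81 TPM in the control libraries. The control libraries were widely spread and did not reach the LPS range. Its log2 fold change in LPS versus control was 1.12 ± 0.404 (limma BH-adjusted p = 0.0823), and its size depended on single control libraries. It was 0.57 without control replicate 2 (limma BH-adjusted p = 0.0562) and 1.51 without control replicate 3 (limma BH-adjusted p = 0.0299). Between extract and LPS it was -0.50 ± 0.404 (limma BH-adjusted p = 0.376). Without control replicate 2 that value was unchanged but passed (limma BH-adjusted p = 0.0371). Control libraries enter the extract-LPS comparison only through the spread estimated over all groups. As a share of Rela this transcript was 18.8% ± 2.35 in extract, 23.1% ± 3.93 in LPS and 11.0% ± 6.97 in control libraries. The shares were not tested, and transcripts of a gene share most of their reads, so their split is an estimate.

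**Figure D5:**
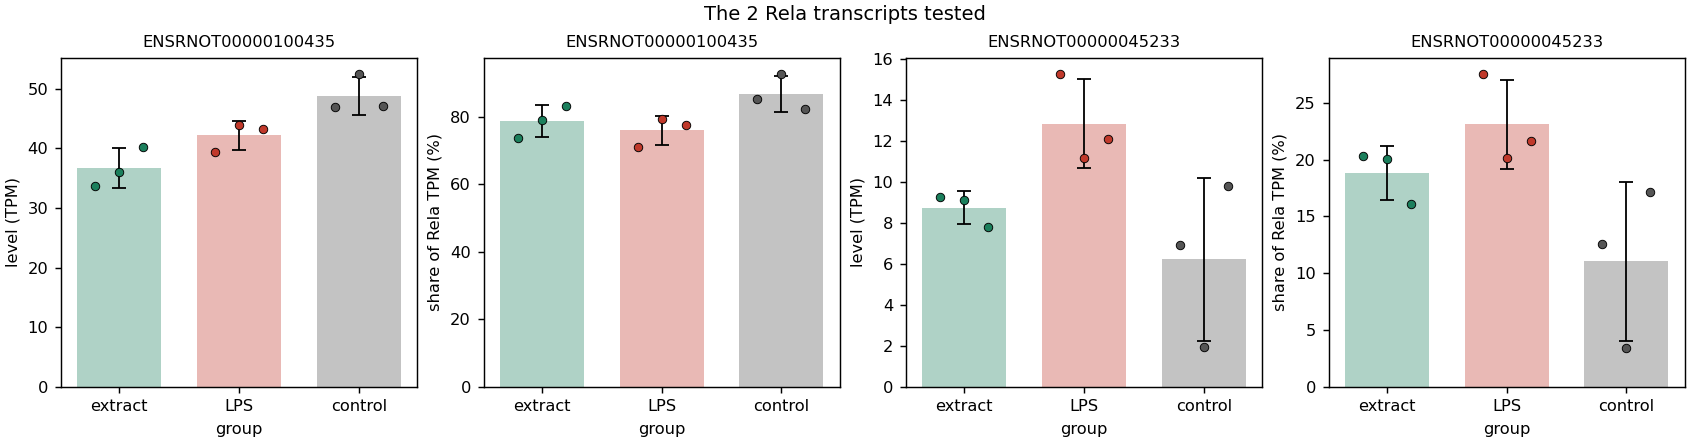
Level (TPM) and share of the Rela total (%) of the 2 Rela transcripts tested, in the extract, LPS and control libraries. Points are libraries, bars are means and error bars are the SD of 3 libraries. ENSRNOT00000045233 spreads widely among control libraries, from 1.95 to 9.81 TPM.

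Across the 9 libraries the members fell into 2 kinds of pattern. By Pearson's r of log2(TPM + 1), Nfkbia was most like Nfkb1 among the members (0.975), as was Tnfaip3 (0.946), and Nfkb2 was most like Rela (0.958). These correlations describe 9 libraries in 3 separate groups and include the differences between group means. Of 12187 other tested genes, 97 reached an r of 0.95 with Nfkb1, 92 with Nfkbia and 5 with Tnfaip3, against 526 with Nfkb2 and 359 with Rela. The gene most like Nfkbia, ENSRNOG00000003732 (r = 0.994), ranged from 41.64 to 42.38 TPM in extract, 52.39 to 55.41 TPM in LPS and 30.55 to 30.75 TPM in control libraries. The gene most like Nfkb2, ENSRNOG00000030625 (r = 0.996), ranged from 42.19 to 43.75 TPM in extract, 55.48 to 56.32 TPM in LPS and 53.28 to 56.01 TPM in control libraries. The files do not name either gene.

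The remaining genes of the pathway (among them the subunits Rel and Relb, the IkB genes Nfkbib, Nfkbie and Nfkbiz, the kinase genes Chuk, Ikbkb and Ikbkg, and Birc3 and Cyld) were not analysed here, nor were markers of mesangial or other cell types, because neither the files nor the reference table pairs identifiers with their names. The check of the cell type label against markers was therefore not made. Across genes, 0.9766 was the lowest correlation of log2(TPM + 1) within a group and 0.9689 the highest between groups. Between 11954 and 12104 genes reached 1 TPM in a library.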

How the data were processed

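RNA of 9 libraries was measured by sequencing. The authors deposited TPM values per gene and per transcript, rounded to 2 decimals, in which each library sums to 1000000. Tools listed in the submitters' processing notes are fastp, HISAT2 2.1.0 and RSEM 1.3.3, with no role or setting. Build, annotation and strandedness: not given in the sources used here. TPM keeps no record of depth, so the depth is unknown and no counting interval is given. Precision rests on the spread within groups of 3 libraries, pooled over all 9 libraries and moderated over genes by limma.

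Columns were assigned to libraries by the code that opens each title. The 12192 of 30560 genes whose mean reached 1 TPM were tested on log2(TPM + 1) with limma 3.58.1 in R 4.3.3. One model with a mean per group, 6 residual degrees of freedom and a mean-variance trend was fitted, two-sided, with Benjamini-Hochberg adjustment over all tested genes and a threshold of 0.05. Transcripts were tested the same way and were linked to a member by the shortest run of rows summing to its TPM within 0.006 TPM per rounded value. A transcript at or near 0 beside such a run could also belong to the gene. The fit was tested on simulated data, but the outcome is not given here, so nothing about its accuracy is drawn from that. The members and lists were chosen with earlier results of these data known. All 5 members were named whatever their values, and a bare identifier was printed only for the gene most like Nfkb2 and the gene most like Nfkbia. Alternatives covered the pseudocount, the filter, the scaling, the replicate block, the groups fitted, the trend, library weights and each library left out.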

Additional observations from a re-analysis of the deposited data

How the results depend on the processing

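The fold changes of Nfkb1, Nfkbia and Rela in the 3 comparisons kept their direction where called, and their side of the threshold, under all 19 alternatives run. Those of Nfkb2 did so except in LPS versus control, where its log2 fold change passed the threshold with median-of-ratios scaling (0.15, limma BH-adjusted p = 0.0106) and with quantile normalization (0.12, limma BH-adjusted p = 0.0233); the cause was not tested. Its adjusted p there ranged from 0.0106 to 0.557. Between LPS and control, the same scalings moved the 1193 genes called higher to 2117 and 1940, and the 3769 called lower to 2264 and 2402. Rela in LPS versus control, uncalled throughout, ranged from -0.04 to 0.07. Tnfaip3 was left out by a filter of 5 TPM, since its mean was below it. Its extract-control call was lost with no filter (log2 fold change 0.28, limma BH-adjusted p = 0.0531). That setting tested more genes and also refitted the mean-variance trend over them, and what moved the adjusted p was not tested. A pseudocount of 5 TPM moved its log2 fold changes to 0.34 (LPS versus control), -0.19 (extract versus LPS) and 0.15 (extract versus control), each still called, and moved that of the minor Nfkbia transcript ENSRNOT00000114471 between LPS and control to 0.36. With single libraries left out the Tnfaip3 log2 fold change ranged from -0.36 to -0.25 in extract versus LPS and from 0.21 to 0.32 in extract versus control. Over all alternatives for Tnfaip3 the adjusted p ranged from 0.00819 to 0.0564 and from 0.00866 to 0.0957 in these comparisons. The log2 difference in the ratio of Tnfaip3 over Rela between LPS and control libraries was 0.75, and 0.61 when 1 TPM was added to both values. No pairing by replicate number was assumed. Correlations of deviations ran from -0.0554 to 0.0951 between libraries with the same number and from -0.11 to 0.0894 between others, so the ranges largely overlapped. As a hint from the data and not from the design, 6 of 9 libraries correlated best with one of their own number. How many would do so without pairing was not estimated. With the replicate block 1105 genes were called higher and 3553 lower between LPS and control, 4099 higher and 2973 lower between extract and LPS, and 2608 higher and 3462 lower between extract and control. It changed no call of a member gene, and Tnfaip3 in extract versus control had a limma BH-adjusted p of 0.0481. At the transcript level it ended the call of Tnfaip3 ENSRNOT00000074583 in extract versus LPS (limma BH-adjusted p = 0.0635) and of Nfkb1 ENSRNOT00000109057 in extract versus control (limma BH-adjusted p = 0.0582), and it brought Rela ENSRNOT00000100435 in extract versus LPS past the threshold (limma BH-adjusted p = 0.0496).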
